A study of Mus musculus with 8 samples.

Results

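The genes described here are 40 regulators and effectors of cell division, picked by name for their known roles: 9 that act in G1 or at entry to S phase, 13 that license, copy or supply DNA replication, and 18 that act in mitosis. They were found by symbol in the authors' deposited table, which lists 48404 genes, and 40 of 40 had a row with a fold change. The study sequenced RNA from cerebral microvessels, the small vessels isolated from brain tissue, of wild-type C57BL6 mice. The 4 tMCAO libraries came from mice after transient middle cerebral artery occlusion, a stroke model in which a brain artery is blocked and then reopened, and the 4 sham libraries from mice given the sham operation. Both groups share genotype, strain and tissue. The sources used here do not give the age of the mice, the length of the block or the time from reopening to collection.

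Resting cells enter the cycle when mitogens raise D-type cyclins, which activate CDK4 and CDK6 to phosphorylate the retinoblastoma family. This frees E2F factors, which switch on cyclin E, the licensing factors and the replication enzymes. Mitotic genes are switched on later by the MuvB complex with MYBL2 and FOXM1, which reads promoter elements called CHR, often beside CCAAT boxes bound by NF-Y. Endothelial cells of the healthy adult brain divide rarely, and oligodendrocyte precursors are a main dividing cell of the adult brain outside the neurogenic zones.

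The values are the authors' own: 1 log2 fold change and 1 p-value per gene over the whole comparison. Values per library were not analysed here, so neither the depth of a library nor the values behind a mean can be shown. The column header does not say which group is the numerator. A positive sign was taken to mean higher after tMCAO, from genes known to be induced by acute injury, such as Il6 at 5.92, Lif at 5.14 and Hmox1 at 3.81 on the log2 scale in the authors' deposited table. A gene was called when its p, read as adjusted by the Benjamini-Hochberg method over all tested genes, was under 0.05. The interval given with a fold change is a 95% interval from a standard error worked back from that p, and it is approximate. It assumes fold changes that were not shrunk towards 0. They probably were shrunk, and these intervals and standard errors may then be too narrow. The labels do not say whether each library is a separate mouse, so these p-values measure the spread between the libraries, some of which may be technical.

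Relative to the typical gene, replication genes were higher after tMCAO almost throughout, G1 genes were split, and mitotic genes were mostly not called. Of the 40 members, 37 had a p in the authors' deposited table; 17 (45.9%) rose, 2 (5.41%) fell and 18 were not called. Over all 19294 tested genes 15.2% were called higher, 17.6% lower and 32.8% in either direction. The median log2 fold change was 0.55 over the 37 tested members, against -0.0008 over all tested genes. By role, 11 of 13 replication genes, 5 of 9 G1 genes and 1 of 15 tested mitotic genes rose, and 2 G1 genes fell. The medians were 0.75 for replication, 0.55 for G1 and 0.32 for mitosis on the log2 scale, and the differences between roles were not tested. These directions are relative to the typical gene: centred instead on 76 ribosomal protein genes, whose median was 0.87, 1 member was called higher and 16 lower (0 and 5 in G1, 1 and 3 in replication, 0 and 8 in mitosis), and of all genes 344 were called higher and 14791 lower. If the deposited p was not yet adjusted, adjusting it leaves 15 members called, without Ccnd3, Cdc6, Mcm4 and Rrm1.

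**Figure D1:**
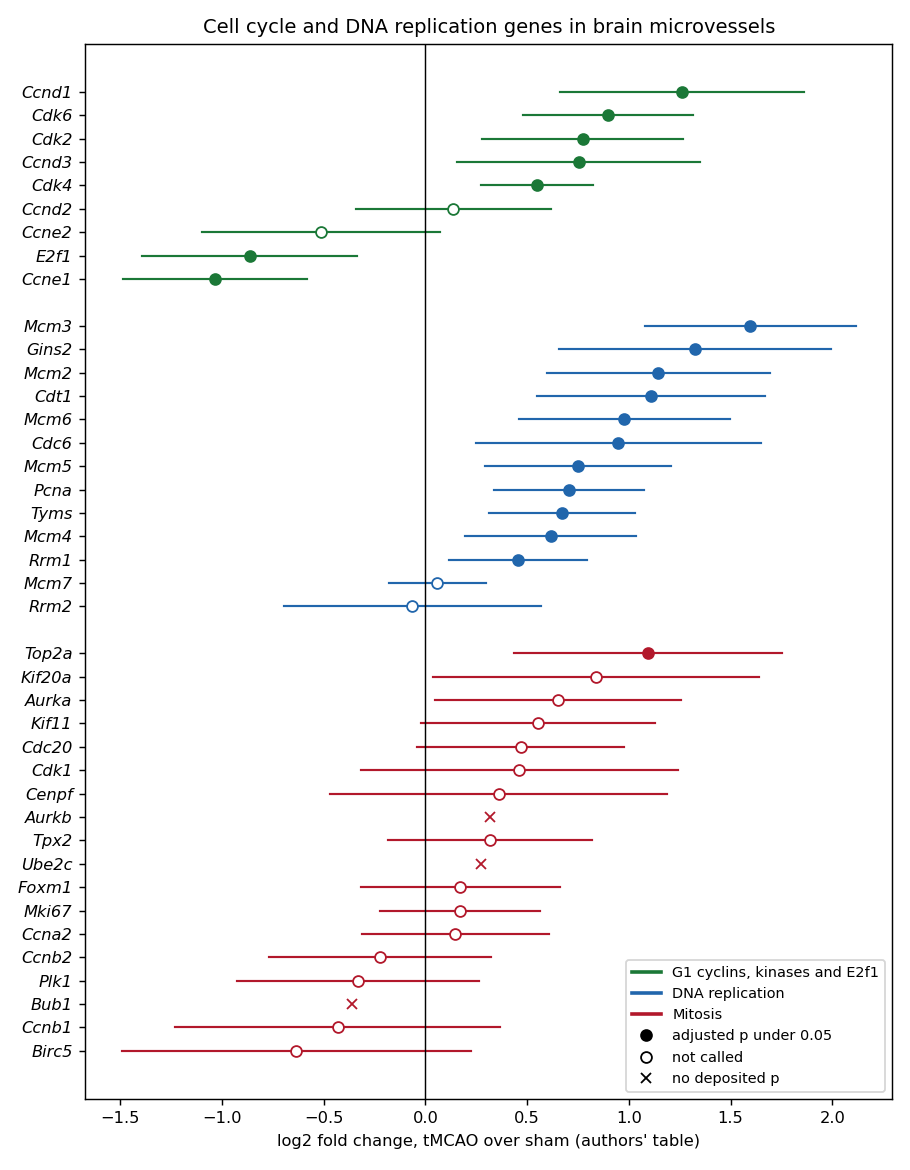
Log2 fold change, tMCAO over sham (x axis), for each of the 40 members (y axis), grouped by role; filled points are called at an adjusted p under 0.05, open points are not, crosses have no deposited p, and lines are approximate 95% intervals. Of 13 replication genes, 11 lie right of 0 and are called, against 1 of 15 tested mitotic genes. Ccne1 and E2f1 are the called genes left of 0. Centred on ribosomal protein genes, 1 member would be called higher and 16 lower. Of the 19 calls drawn, 14 would then be lost, and Cdk4 and Rrm1 would be called lower instead of higher. A further 12 members not called here would be called.

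The member with the highest fold change was a gene of the replicative helicase. MCM proteins form the ring that is loaded on origins in G1 and unwinds DNA in S phase, and 5 of its 6 subunit genes rose. If centred on ribosomal protein genes, Mcm4 and Mcm5 would turn negative, and of these 5 only Mcm3 would still be called. Mcm3 was 3.02-fold higher after tMCAO by the authors' deposited table (log2 value 1.60, interval 1.08 to 2.12, adjusted p = 1.19e-07), placing it at percentile 98.3 of all tested genes by fold change. In the authors' deposited table Mcm2 rose by 1.14 on the log2 scale (adjusted p = 0.000444), Mcm6 by 0.98 (adjusted p = 0.00154), Mcm5 by 0.75 (adjusted p = 0.00664) and Mcm4 by 0.62 (adjusted p = 0.0169). Mcm7, the remaining subunit, stood at 0.06 on the log2 scale (adjusted p = 0.752) in the authors' deposited table. Its interval, -0.18 to 0.30, lies below the whole interval of Mcm3, and its standard error of 0.12 is the smallest of the 37 tested members. The difference between Mcm7 and the other subunits was not tested. Exons of Cops6 and Ap4m1 on the opposite strand and of the microRNA genes Mir25 and Mir93 cover 12.6% of Mcm7 exon bases, and the sources used here do not say whether the authors' counting used strand. Mcm3 (identifier ENSMUSG00000041859) lies on chromosome 1 from 20802968 to 20820312, Mcm2 on chromosome 6 from 88883474 to 88898780 and Mcm7 on chromosome 5 from 138164583 to 138172422 in the GENCODE M21 annotation of GRCm38.

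The 3 members that load or start the helicase, Cdt1, Cdc6 and Gins2, rose. Cdt1 and Cdc6 encode the loaders that place MCM on origins in G1, and Gins2 encodes a subunit of GINS, which joins the helicase as it starts. In the authors' deposited table Cdt1 was 2.16-fold higher (log2 value 1.11, adjusted p = 0.000927) and Cdc6 1.93-fold higher (log2 value 0.95, adjusted p = 0.028). Gins2 was 2.51-fold higher after tMCAO by the authors' deposited table (log2 value 1.33, interval 0.66 to 1.99, adjusted p = 0.000912). Exons of Gse1 on the opposite strand cover 67.3% of Gins2 exon bases, so reads of this pair cannot be told apart without strand; Gse1 itself stood at 0.02 on the log2 scale (adjusted p = 0.933) in the authors' deposited table. Pcna, the sliding clamp of the replicative polymerases, rose by 0.70 on the log2 scale (adjusted p = 0.0014) in the authors' deposited table.

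Of the 3 members that supply deoxynucleotides, 2 rose. Tyms, thymidylate synthase, rose by 0.67 on the log2 scale (adjusted p = 0.00171) and Rrm1, the large subunit of ribonucleotide reductase, by 0.45 (adjusted p = 0.0296) in the authors' deposited table. Rrm2, the small subunit, whose amount is known to follow S phase, stood at -0.06 on the log2 scale (interval -0.69 to 0.57, adjusted p = 0.901) in the authors' deposited table. The interval of Rrm2 spans the value of Rrm1, so a difference within the enzyme was not detectable here. With ribosomal protein genes as the centre, Tyms would stand at -0.20, Rrm1 at -0.42 (called lower) and Pcna at -0.17 on the log2 scale.

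**Figure D2:**
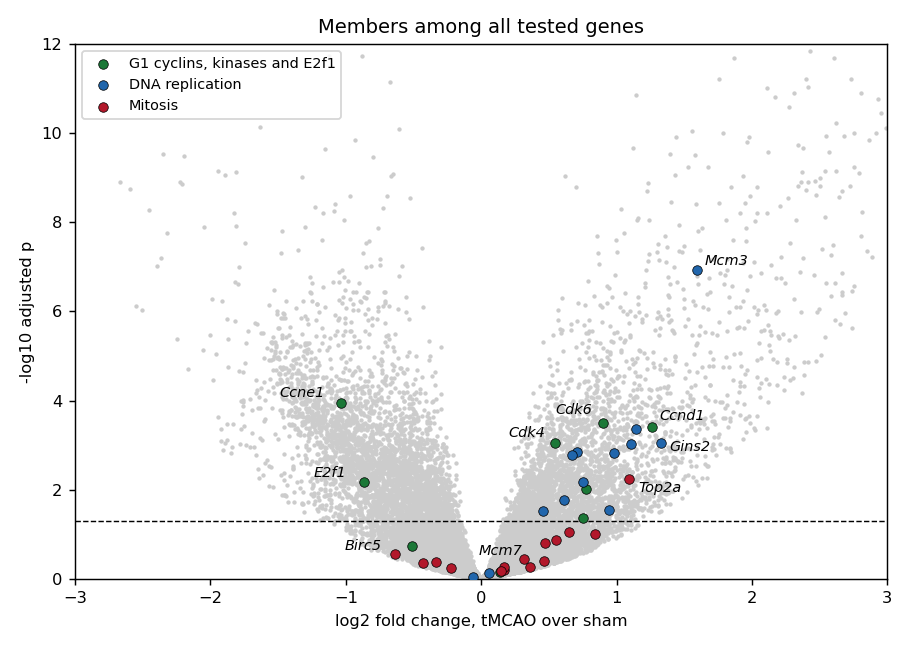
Log2 fold change, tMCAO over sham (x axis), against -log10 of the adjusted p (y axis, log scale by construction) for all tested genes in grey and the 37 tested members in colour by role; the dashed line is an adjusted p of 0.05, and 77 tested genes lie outside the axes. Replication genes sit to the upper right up to Mcm3 at 1.60, most mitotic genes lie under the line, and Ccne1 at -1.03 and E2f1 at -0.86 are to the left; with ribosomal protein genes as the centre every point would lie 0.87 further left.

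Promoters of replication genes are shown because 11 of these 13 genes rose and several are classical E2F targets. RefSeq promoters (build GRCm38.p6, 250 bases before to 50 after the start) were matched for 30 of 40 members, as 32 promoters since a gene can have more than 1, and searched on both strands. The E2F words searched were TTCGCGC, its neighbour TTGGCGC, the third form TTCCCGC and the fourth form TTGCCGC. The CHR words were TTTGAA and the form TTTAAA, which is its own reverse complement, and the NF-Y word was CCAAT. Words on opposite strands can overlap, so 1 run of capitals can hold an E2F word on each strand. In the last 200 bases before the start, written 5′ to 3′ on the gene's strand, matches to any of these words are in capitals:
Mcm3 (chr1:20820313-20820512, - strand): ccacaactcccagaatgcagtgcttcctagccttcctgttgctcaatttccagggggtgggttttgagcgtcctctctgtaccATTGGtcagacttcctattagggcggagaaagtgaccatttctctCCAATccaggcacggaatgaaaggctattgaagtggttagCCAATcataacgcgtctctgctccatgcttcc
Mcm6 (chr1:128359706-128359905, - strand): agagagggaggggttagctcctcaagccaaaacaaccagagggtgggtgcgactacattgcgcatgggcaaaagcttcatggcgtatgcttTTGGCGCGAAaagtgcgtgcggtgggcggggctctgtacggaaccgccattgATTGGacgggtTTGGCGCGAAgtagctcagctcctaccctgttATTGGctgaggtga
Mcm5 (chr8:75109309-75109508, + strand): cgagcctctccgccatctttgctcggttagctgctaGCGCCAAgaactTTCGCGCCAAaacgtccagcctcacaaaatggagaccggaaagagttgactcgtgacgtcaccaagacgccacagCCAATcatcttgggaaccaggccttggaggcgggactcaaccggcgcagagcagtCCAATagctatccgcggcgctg
Mcm2 (chr6:88898781-88898980, - strand): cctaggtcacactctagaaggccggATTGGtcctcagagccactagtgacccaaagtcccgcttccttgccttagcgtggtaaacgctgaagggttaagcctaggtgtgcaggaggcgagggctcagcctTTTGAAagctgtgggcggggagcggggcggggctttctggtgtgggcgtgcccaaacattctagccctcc
Mcm6 holds E2F words starting at positions -109, -106, -46 and -43 from the start, and Mcm5 at -164, -152 and -149. Mcm3 has none in these 200 bases but has them at positions 20, 40 and 43 after the start, not printed. Mcm2 has no E2F word and holds a CHR word at -70.

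An E2F word was present in 75.0% of the 12 promoters of replication genes, 23.1% of the 13 of mitotic genes and 14.3% of the 7 of G1 genes, against 9.57% of 32851 RefSeq promoters. Among replication genes that rose, 6 of 9 with a promoter held one (Cdc6, Cdt1, Mcm3, Mcm5, Mcm6 and Rrm1). Of the pair that was not called, 2 of 2 also held one, Mcm7 and Rrm2. A match is a description of these letters and not a bound site.

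**Figure D3:**
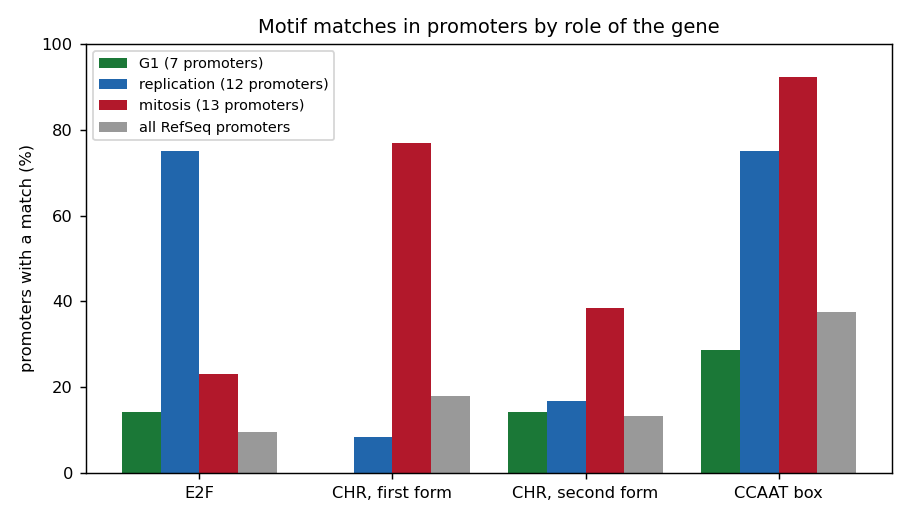
Share of promoters (y axis, %) with at least 1 match to each motif (x axis) for G1, replication and mitotic members and for all RefSeq promoters; the first CHR form is TTTGAA and the second TTTAAA. E2F words are most frequent in replication promoters (75.0%) and the first CHR form in mitotic promoters (76.9%), against 9.57% and 17.9% of all promoters.

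G1 genes moved in both directions. Cyclins D1, D2 and D3 are the activating subunits of CDK4 and CDK6. Ccnd1 was 2.40-fold higher after tMCAO (log2 value 1.26, interval 0.66 to 1.86, adjusted p = 0.000395) and Ccnd3 1.68-fold higher (log2 value 0.75, adjusted p = 0.0423) by the authors' deposited table. Ccnd2 stood at 0.14 on the log2 scale (interval -0.34 to 0.61, adjusted p = 0.701) in the same authors' deposited table, and this interval does not reach that of Ccnd1, though the difference was not tested. Exons of Oraov1 on the opposite strand cover 23.4% of Ccnd1 exon bases; Oraov1 stood at -0.11 on the log2 scale (adjusted p = 0.435) in the authors' deposited table. The partner kinase genes rose as well, Cdk6 by 0.90 (adjusted p = 0.000314) and Cdk4 by 0.55 (adjusted p = 0.000893) on the log2 scale in the authors' deposited table. Tspan31, whose exons on the opposite strand cover 19.7% of Cdk4 exon bases, was called higher too, at 0.31 in the authors' deposited table. With ribosomal protein genes as the centre, Ccnd3 would stand at -0.12, Cdk4 at -0.33 (called lower) and Cdk2, described next, at -0.10 on the log2 scale. Ccnd1 and Cdk6 would stay positive but would not be called.

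At the next step, the E-type cyclin genes and E2f1 were lower or not called. Ccne1, the cyclin that activates CDK2 at entry to S phase, was 2.05-fold lower after tMCAO by the authors' deposited table (log2 value -1.03, interval -1.48 to -0.58, adjusted p = 0.000113). E2f1, an activating E2F factor, was 1.82-fold lower by the authors' deposited table (log2 value -0.86, interval -1.39 to -0.34, adjusted p = 0.00678). The fall was not shared by E2f2 at 0.09 (adjusted p = 0.851) and E2f3 at 0.08 (adjusted p = 0.764) on the log2 scale in the authors' deposited table. Ccne2, the other E-type cyclin, stood at -0.51 on the log2 scale (interval -1.10 to 0.07, adjusted p = 0.182) in the authors' deposited table. Cdk2, the kinase that cyclins E and A activate, rose by 0.77 on the log2 scale (adjusted p = 0.00973) in the authors' deposited table. Ccne1 lies on chromosome 7 from 38097984 to 38107534 and E2f1 on chromosome 2 from 154559407 to 154569892; no exon of another annotated gene overlaps theirs. Their RefSeq promoters held no E2F word and no CCAAT box, and the same holds for Cdk4 and Cdk6, which rose. The promoter of Ccne1 held the CHR form TTTAAA at -15. A lack of matches to these words does not show the lack of a bound site.

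Mitotic genes were mostly not called in either direction. Of 15 tested, 1 was called higher (6.67%, against 15.2% of all tested genes) and none lower (against 17.6%). Top2a, the topoisomerase that untangles replicated chromosomes, was the mitotic member that rose, 2.13-fold by the authors' deposited table (log2 value 1.09, interval 0.44 to 1.75, adjusted p = 0.00591). The cyclins of G2 and mitosis had log2 fold changes of 0.15 for Ccna2 (adjusted p = 0.667), -0.22 for Ccnb2 (adjusted p = 0.575) and -0.43 for Ccnb1 (adjusted p = 0.44) in the authors' deposited table. Their kinase gene Cdk1 stood at 0.46 (interval -0.32 to 1.24, adjusted p = 0.393) in the authors' deposited table. Mki67, the marker most used for dividing cells, stood at 0.17 on the log2 scale (interval -0.22 to 0.57, adjusted p = 0.548), and the mitotic transcription factor gene Foxm1 had 0.17 (interval -0.32 to 0.66, adjusted p = 0.637), both in the authors' deposited table.

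After Top2a, the highest values among the mitotic genes belonged to genes of kinesins and a spindle kinase, and the lowest to Birc5, which encodes the chromosomal passenger protein survivin. The authors' deposited table gave log2 fold changes of 0.84 for the cytokinesis kinesin gene Kif20a (adjusted p = 0.0998), 0.65 for the spindle pole kinase gene Aurka (adjusted p = 0.0908), 0.55 for the spindle kinesin gene Kif11 (adjusted p = 0.138) and 0.47 for Cdc20, the activator of the anaphase promoting complex (adjusted p = 0.158). Kif20a shares 29.3% of its exon bases with Cdc23 on the opposite strand. Further values in the authors' deposited table were 0.36 for the kinetochore gene Cenpf and 0.32 for the spindle assembly gene Tpx2, then -0.33 for the mitotic kinase gene Plk1 and -0.63 for Birc5, none with an adjusted p under 0.27. The passenger kinase gene Aurkb at 0.32, the ubiquitin-conjugating enzyme gene Ube2c at 0.27 and the checkpoint kinase gene Bub1 at -0.36 had a fold change but no p in the authors' deposited table, and the sources used here do not say why. A p that misses the threshold does not show that mitotic genes were unchanged: their median standard error was 0.30, against 0.26 for replication genes and 0.22 for all tested genes. The upper bound of the interval lay below 1 on the log2 scale, a doubling, for 9 of the 15 tested mitotic genes, against 15812 of all 19294 tested genes, so these intervals set no tighter limit than is usual in the table. If the fold changes were shrunk towards 0, these upper bounds may be too low.

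Promoters of mitotic genes are shown beside those of replication genes because the words counted in them differ. The stretches below are again the last 200 bases before the RefSeq start with matches in capitals, for Top2a, which rose, and for Mki67, Ccnb2 and Kif11, which were not called:
Top2a (chr11:99024190-99024389, - strand): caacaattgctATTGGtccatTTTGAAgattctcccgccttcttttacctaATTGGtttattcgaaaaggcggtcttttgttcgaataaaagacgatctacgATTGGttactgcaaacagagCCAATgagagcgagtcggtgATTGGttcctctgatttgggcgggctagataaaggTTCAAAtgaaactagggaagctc
Mki67 (chr7:135716380-135716579, - strand): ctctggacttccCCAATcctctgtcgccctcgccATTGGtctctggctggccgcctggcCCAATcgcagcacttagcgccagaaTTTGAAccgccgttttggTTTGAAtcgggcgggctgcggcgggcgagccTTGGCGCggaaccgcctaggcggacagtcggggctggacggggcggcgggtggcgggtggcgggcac
Ccnb2 (chr9:70421555-70421754, - strand): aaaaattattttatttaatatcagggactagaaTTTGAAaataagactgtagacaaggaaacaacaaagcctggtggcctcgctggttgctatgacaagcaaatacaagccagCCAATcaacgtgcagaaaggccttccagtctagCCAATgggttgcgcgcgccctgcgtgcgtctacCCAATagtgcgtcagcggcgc
Kif11 (chr19:37376182-37376381, + strand): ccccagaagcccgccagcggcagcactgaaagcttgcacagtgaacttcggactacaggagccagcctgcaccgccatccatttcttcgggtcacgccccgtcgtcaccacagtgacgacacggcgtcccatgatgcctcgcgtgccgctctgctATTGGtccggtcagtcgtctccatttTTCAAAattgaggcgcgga
Top2a holds CHR words starting at -179 and -23 and several CCAAT words, Mki67 holds CHR words at -116 and -98 and an E2F word at -67, Ccnb2 holds a CHR word at -167 and CCAAT words at -87, -54 and -21, and Kif11 holds a CHR word at -19 and a CCAAT word at -45. The CHR form TTTGAA was present in 76.9% of the 13 promoters of mitotic genes, 8.33% of the 12 of replication genes and 0 of the 7 of G1 genes, against 17.9% of all RefSeq promoters. CCAAT was present in 92.3%, 75.0% and 28.6% of these promoters, against 37.4% of all.

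Other genes of the cycle, listed by role, were read beside the members. Of 41 tested origin and replisome genes, 12 (29.3%, against 15.2% of all tested genes) rose and 1 fell, with a median log2 fold change of 0.28. Timeless, a fork protection factor, was 2.36-fold higher (adjusted p = 5.14e-08), Gins1 was 2.51-fold higher (adjusted p = 0.000254) and the polymerase epsilon subunit gene Pole2 2.71-fold higher (adjusted p = 0.000549) in the authors' deposited table. Pold1, the catalytic subunit of polymerase delta, rose by 0.51 on the log2 scale (adjusted p = 0.00113) in the authors' deposited table. The gene that fell was Cdc7, the kinase that fires origins, at -0.47 on the log2 scale in the authors' deposited table, while its activator Dbf4 rose by 0.60; both are named after their values were seen. Of 10 deoxynucleotide supply genes, with a median of 0.28, 3 rose and none fell: Shmt1, a folate enzyme, by 0.97, Dctpp1 by 0.74 and Samhd1, which breaks down deoxynucleotides, by 0.46 on the log2 scale in the authors' deposited table. Under centring on ribosomal protein genes no gene of these lists was called higher, with 33 and 7 called lower.

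Counts for other regulators of G1 stand against 15.2% called higher and 32.8% called in either direction over all tested genes. Among CDK inhibitors, with a median log2 fold change of 0.19, 1 of 6 tested rose, Cdkn1a, the p53 target p21, which was 3.01-fold higher (adjusted p = 5.59e-06) in the authors' deposited table. Of 18 pocket proteins, E2F and MuvB genes 4 rose and 1 fell, with a median of 0.14. E2f7, a repressor E2F, rose by 1.03 (adjusted p = 0.00114), the pocket protein gene Rbl1 by 0.57 and E2f4, a factor of resting cells, by 0.30 on the log2 scale in the authors' deposited table, while the MuvB subunit gene Lin37 fell by 0.31. With ribosomal protein genes as the centre, 1 CDK inhibitor was called higher and 4 lower, and of the pocket protein list 15 were called lower and none higher.

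Mitotic genes outside the members were also mostly not called, as were most tested genes, of which 15.2% were called higher and 17.6% lower. Of 33 tested checkpoint, kinetochore and spindle genes 3 rose (9.09%) and 1 fell (3.03%), with a median of 0.18. The shares called higher in the other 2 lists below were near that over all tested genes. Kif2c, a microtubule depolymerase, was 2.70-fold higher (adjusted p = 0.00307), Ect2, a cytokinesis factor, rose by 0.65 and the checkpoint gene Bub3 by 0.32 on the log2 scale in the authors' deposited table. Anln, which encodes the cytokinesis scaffold anillin, was 2.01-fold lower (adjusted p = 0.000913) in the authors' deposited table. Of 17 anaphase promoting complex genes, with a median of 0.15, 3 rose (17.6%) and none fell. Anapc4 rose by 0.25, Cdc16 by 0.35 and Anapc1 by 0.20 on the log2 scale in the authors' deposited table. Of 11 CDC25, WEE1 and checkpoint kinase genes, with a median of 0.04, 2 rose (18.2%) and none fell. Cdc25a, a phosphatase that activates CDKs, rose by 0.49 and Mnat1 by 0.34 on the log2 scale in the authors' deposited table. With ribosomal protein genes as the centre, 19, 17 and 10 genes of these 3 lists were called lower and none higher.

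Replication-dependent histone genes, whose messengers are made in S phase and mostly lack a poly(A) tail, can be measured here because the labelled protocol names depletion of ribosomal RNA and no poly(A) selection. Of 43 tested, 1 rose (2.33%, against 15.2% of all tested genes) and 4 fell (9.30%, against 17.6%), with a median log2 fold change of -0.08. The list was taken by the start of the name, and whether each gene on it is made in S phase was not checked. Among the 4 that fell, 1 is a pseudogene by its name. Apart from Hist2h2ab, those that fell have names starting with Hist3h, so they may not be separate readings. With p adjusted over protein-coding genes, 1 of 42 rose and 3 fell. Centred on ribosomal protein genes, 32 of the 43 were called lower and none higher. Hist3h2a fell by 0.71 (adjusted p = 4.8e-06) and Hist2h2ab by 1.08 (adjusted p = 0.0069), while Hist1h1d rose by 0.56 (adjusted p = 0.0122), all in the authors' deposited table. Histone genes of 1 class are near copies, so the authors' counting could split or drop their reads, and these values are uncertain.

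**Figure D4:**
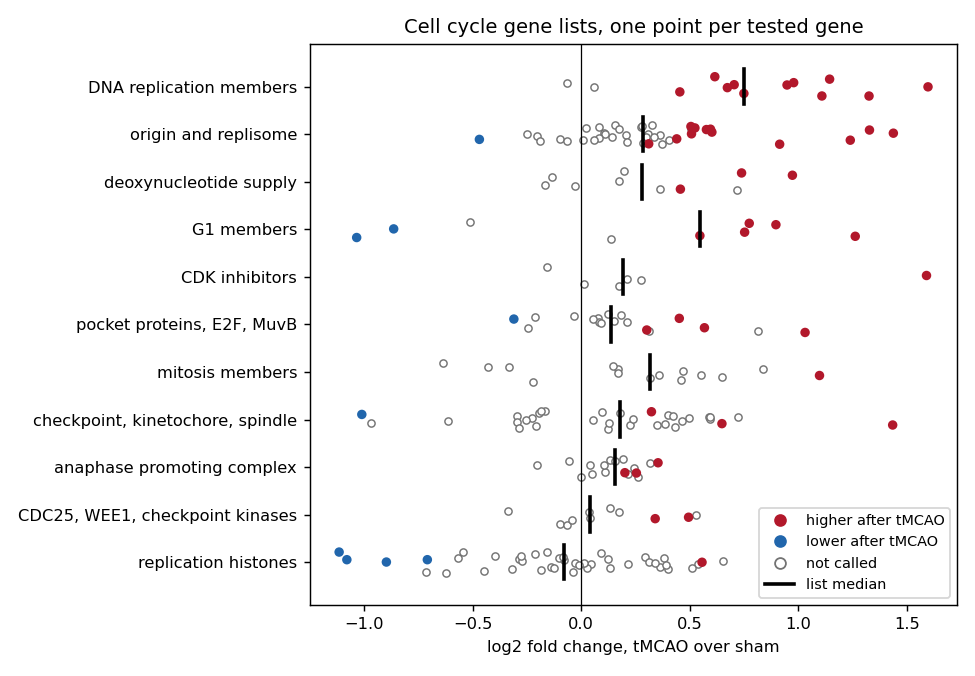
Log2 fold change, tMCAO over sham (x axis), of each tested gene by list (y axis), with called genes filled, red for higher and blue for lower, and the list median as a bar; vertical scatter within a list has no meaning. The replication members have the highest median (0.75) and the histone genes the lowest (-0.08) of the lists drawn; centred on ribosomal protein genes every value would lie 0.87 lower.

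Markers of cell types differed between the groups in the same comparison, and in bulk samples fewer cells of a type cannot be told apart from less RNA per cell. Of all tested genes, 15.2% were called higher and 17.6% lower. Endothelial markers were called higher in 8 of 12 (median 0.73). All 12 had a p, but levels were not analysed, so the labelled tissue could not be checked further. Markers of neutrophils were higher in 6 of 7 (median 2.55), of monocytes and macrophages in 6 of 8 (median 1.64), of fibroblasts in 3 of 8 (median 0.84), of pericytes in 2 of 8 (median 0.15) and of smooth muscle in 1 of 6 (median 0.25). Lower were 6 of 8 markers of oligodendrocyte precursors (median -0.96), 5 of 8 of microglia (median -0.97), 6 of 8 of neural progenitors (median -0.96, with 1 higher), 8 of 8 of neurons (median -1.09) and 6 of 8 of oligodendrocytes (median -0.63). Astrocyte markers had 1 of 8 higher and 1 lower (median -0.04), red blood cell markers 1 of 6 lower (median 0.17), and of 8 lymphocyte markers 2 had a p and none was called. The shares for smooth muscle (16.7% higher) and astrocyte markers (12.5% higher and 12.5% lower) were near or under those over all tested genes. Centred on ribosomal protein genes, every value would lie 0.87 lower. Positive medians under 0.87, such as those of endothelium and fibroblasts, would then be negative. The part of these marker shifts in the values of the cell cycle genes was not tested.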

How the data were processed

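RNA from brain microvessels was sequenced after depletion of ribosomal RNA, per the labels' protocols. Among the tools in the submitters' processing notes are STAR, HTSeq, DESeq2, cutadapt and bcl2fastq 2.19, beside the build GRCm38 (mm10); the sources used here give no roles, other versions or annotation. The authors deposited a log2 fold change per gene (31616 of 48404 genes) and a p-value for 19294 of them, per the file headers. A rescaled copy of the fold changes was not used, and 0 columns hold values per library, so depth is unknown.

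The p-value deposited by the authors was read as Benjamini-Hochberg adjusted: 3214 values recur in more than 1 gene, and in 3214 of these the genes have unequal fold changes. An unadjusted p was recovered from each rank and turned into a normal deviate, which divided into the fold change gave an implied standard error (0.053 to 0.51). This assumes unshrunken fold changes. The fold changes were probably shrunk towards 0, though the sources do not say so. The ground for this is that 8 values between 0.143 and 0.169 in size recur in 212 to 440 genes each. These repeats were counted among genes without a p only. If shrunk, folds and intervals are affected, and the intervals may be too narrow. The recovery of the standard errors was run on simulated fold changes, drawn without shrinkage and with these same standard errors. It therefore checks the arithmetic only and cannot show how shrinkage would change the intervals. Linear folds were computed from the log2 values.

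The members and lists were chosen with earlier results of these data known. Named are the called members, the cyclins and their kinases, and up to 4 called genes of each other list with the smallest adjusted p. The other members are named to account for each one. E2f2 and E2f3 are named beside E2f1, after their values were seen. Promoters are RefSeq entries of GRCm38.p6, and gene positions and exon overlaps are from GENCODE M21. The alternatives varied the threshold, the reading and scope of the adjustment, a minimum fold, the centre of the fold changes and the promoter window. Python 3.11.15, pandas 2.3.3 and scipy 1.17.1 were used.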

Additional observations from a re-analysis of the deposited data

How the results depend on the processing

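Calls of members were the same 19 when p was adjusted over 15316 protein-coding genes or when fold changes were centred on the 9647 genes with the smallest implied standard errors. At an adjusted p under 0.01, or with the deposited p read as unadjusted and adjusted again, 15 of the 19 kept their call; Ccnd3, Cdc6, Mcm4 and Rrm1 lost it. At 0.1, Aurka and Kif20a were gained, so that 3 mitotic genes were called. With a log2 fold change of 1 or more in size required, 7 members were called: 2 in G1, 4 in replication and 1 in mitosis. Leaving out the 10 members with over 5% of exon bases shared with another gene, chosen after seeing the data, left 16 called, 14 higher and 2 lower, of 28 tested.

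Over all genes, 4220 were called at 0.01, 1876 with the minimum fold and 15135 when centred on ribosomal protein genes. At 0.01 the counts called were 1 for pocket proteins and E2F, 7 for origin and replisome, 1 for deoxynucleotide supply, 2 for checkpoint and spindle, 0 for the anaphase promoting complex, 1 for CDC25 and checkpoint kinases and 2 for histones. With p read as unadjusted they were 1, 8, 1, 2, 0, 1 and 2, and with the minimum fold 1, 3, 0, 2, 0, 0 and 2, in the same list order. At 0.1, checkpoint and spindle had 8 and checkpoint kinases 5.

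Centred on ribosomal protein genes, the majority direction turned for members (17 called), G1 (5), replication (4) and mitosis (8), and for CDK inhibitors (5), pocket proteins and E2F (15), origin and replisome (33), deoxynucleotide supply (7), checkpoint and spindle (19), the anaphase promoting complex (17) and checkpoint kinases (10); histones had 32 called. The log2 fold change then turned negative for Ccnd2 (-0.74), Ccnd3 (-0.12), Cdk2 (-0.10), Cdk4 (-0.33), Mcm4 (-0.26), Mcm5 (-0.12), Mcm7 (-0.82), Pcna (-0.17), Rrm1 (-0.42), Tyms (-0.20), Mki67 (-0.70), Ccna2 (-0.73), Cdk1 (-0.41), Aurka (-0.22), Cenpf (-0.51), Tpx2 (-0.56), Foxm1 (-0.70), Cdc20 (-0.41), Kif11 (-0.32) and Kif20a (-0.034). This follows from the construction, which lowers every gene by 0.87. Of the 19 members called in the main setting, 14 were then not called, Cdk4 and Rrm1 were called lower instead of higher, and 12 other members were called.

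In the 250 bases before the start alone, 7.89% of all RefSeq promoters held an E2F word, 15.99% TTTGAA, 12.1% TTTAAA and 33.8% CCAAT, and the shares for replication (E2F, 58.3%) and mitosis (TTTGAA, 53.8%) were lower as well. Leaving out single libraries was not run, because no values per library were analysed. No paired analysis was possible because the groups share no replicate numbers in the labels.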
